A study of Mus musculus with 6 samples.

Results

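The TRIM genes are described here in RNA-seq libraries of sorted bone marrow regulatory T cells (Tregs) of wild-type mice. They were chosen by symbol, as every gene named Trim with a number and at most 1 further letter, which gave 53 of the 15483 genes listed in the 6 tables. The series title speaks of premature aging, and the comparison asks how expression in these cells stands long after irradiation. The groups were control mice, with 3 libraries, and mice at 3 months after irradiation, with 3 libraries. The genotype label was WT in both groups, the cells had been gated on CD3, CD4 and Foxp3 and against NK1.1, and mouse age, sex and radiation dose were not among the labels used here. The labels do not say whether a library came from 1 animal or from several, so the p-values below measure the spread between these libraries, which may be technical.

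TRIM proteins carry a RING finger, B-box zinc fingers and a coiled coil in a fixed order, and most of them are E3 ubiquitin ligases, enzymes that choose which protein receives ubiquitin. The C-terminal domain differs between subfamilies and sets what each member binds: a SPRY domain in the many antiviral members, a PHD finger with a bromodomain in the chromatin-binding members, NHL repeats, a MATH domain, an ARF domain or a membrane anchor in others. A large part of the antiviral group is induced by type I interferon and acts on the sensors and adaptors of that pathway, while others regulate transcription, centrosomes, muscle or neurons.

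All values are FPKM, a fragment count corrected for transcript length and library size, so levels can be compared between genes. Summed FPKM was between 451444 and 485365 in each library. The files give no read counts; low values place the depth of irradiated libraries at 81.6% to 92.6% of control replicate 1, and of control replicates 2 and 3 at 98.4% and 102.8%. The gate's own genes were measured in all 6 libraries, with Foxp3 at 21.2 to 24.8 FPKM in control and 11.9 to 13.5 FPKM after irradiation. Cd3e, part of the T cell receptor complex, was at 36.1 to 41.3 and at 23.4 to 26.2 FPKM. Transcripts of other marrow cells were present too, led by the neutrophil gene S100a8 at 23847 to 39449 FPKM, so a TRIM value is that of the whole sorted sample. In such samples fewer cells of a type and less RNA per cell cannot be told apart.

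Of the 53 TRIM genes, 35 averaged 1 FPKM or more across the 6 libraries and were tested with limma among 10666 genes, on log2(FPKM + 1), a scale that understates the change of low genes. A gene is called when its Benjamini-Hochberg adjusted p over all tested genes is under 0.05. After irradiation 11 TRIM genes were lower and 1 was higher, while 23 did not pass. The lower calls are 31.4% of the tested members, beside 10.3% of all tested genes, and the higher call is 2.86%, beside 6.29%. Either way 34.3% of the members were called, beside 16.6% of all tested genes. The median log2 change, irradiated minus control, was -0.23 for the 35 members and -0.02 for all tested genes. All 12 called members had groups that did not overlap. In all, 16 tested members, Trim32, Trim36, Trim56, Trim62 and Trim65 among those that did not pass, had irradiated values wholly below the control values, a state reached by 20.1% of all tested genes, and 1 had them wholly above, which 13.5% of all tested genes did. Trim36 entered this count only through its control libraries, since its irradiated mean of 0.928 FPKM was below the filter's 1 FPKM. Without control replicate 1, or without irradiated replicate 3, 7 members were lower and 0 higher.

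**Figure D1:**
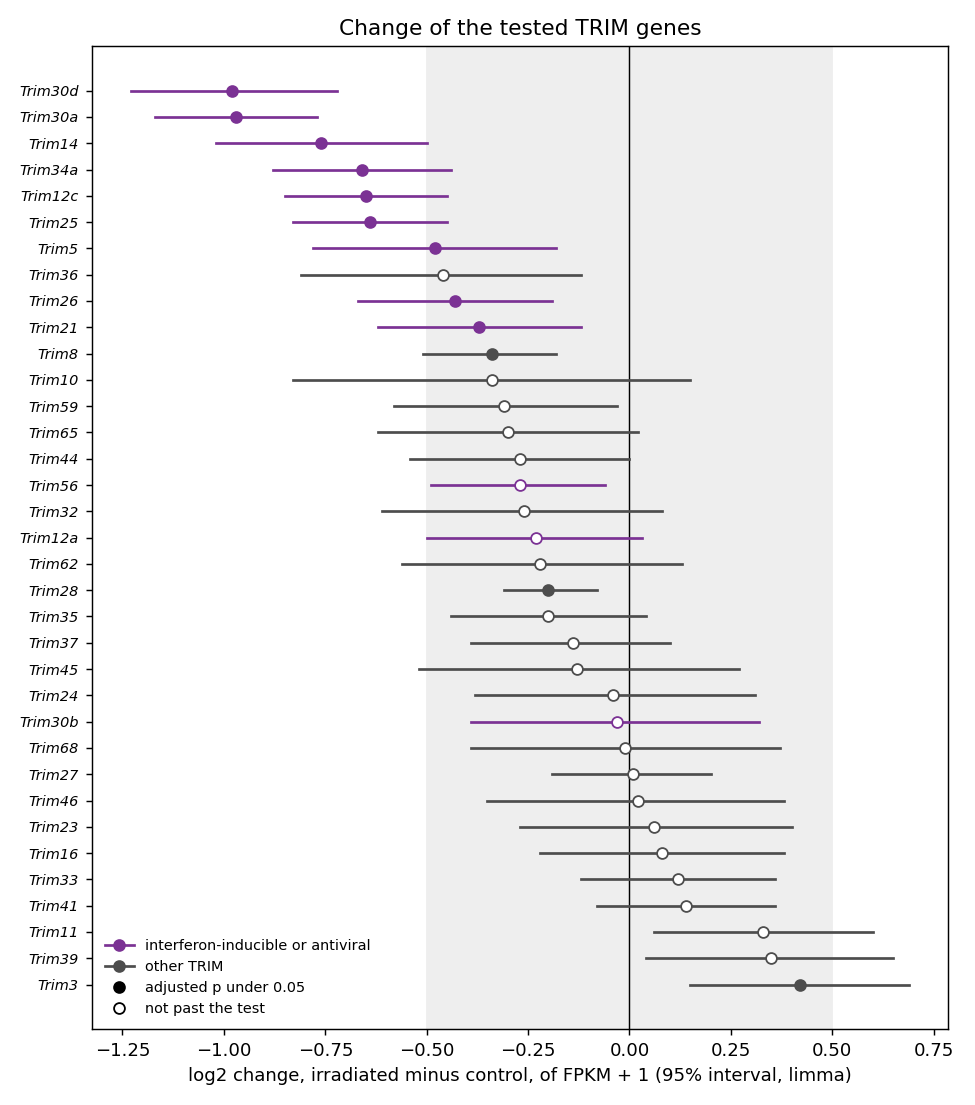
Log2 change of FPKM + 1, irradiated minus control, for the 35 tested TRIM genes, with the 95% interval from limma; filled points passed the test and the grey band spans -0.5 to 0.5. The lowest points, from Trim30d at -0.98 to Trim25 at -0.64, are interferon-inducible or antiviral members, and Trim3 at 0.42 is the filled point on the right.

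The interferon-inducible or antiviral members held 9 of the 11 lower calls. The list of this group has 16 genes and was drawn up with earlier results of these data known. Its contrast with the other members is thus no independent support for a fall of this group. Of the 12 listed genes that were tested 9 fell, 0 rose and 3 did not pass, with a median log2 change of -0.56. Among the 23 tested members outside this list 2 fell, 1 rose and 20 did not pass, with a median of -0.13. Summed over its 16 genes, the antiviral group stood at 227, 230 and 248 FPKM in control replicates 1, 2 and 3 and at 151.0, 160 and 147 FPKM in irradiated replicates 1, 2 and 3. The remaining 37 genes summed to 286, 275 and 303 FPKM in control and to 269, 269 and 267 FPKM in irradiated libraries. The antiviral group thus made up 45.0% ± 0.657 (SD, n = 3) of the family total in control and 36.3% ± 0.899 after irradiation.

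**Figure D2:**
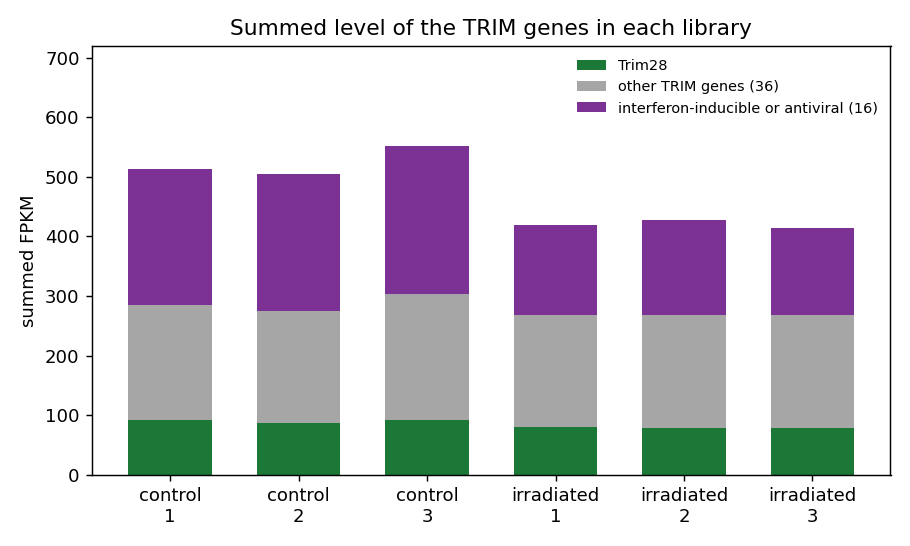
Summed FPKM of the TRIM genes in each library, split into Trim28, the other 36 members outside the antiviral list and the 16 interferon-inducible or antiviral members. The purple part is 227 to 248 FPKM in the control libraries and 147 to 160 FPKM in the irradiated ones.

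Trim30a, which restrains Toll-like receptor signalling to NF-kB, was the most abundant antiviral member and had the lowest p of the family. It was at 43.7, 44.1 and 45.3 FPKM in control replicates 1, 2 and 3 and at 25.9, 19.97 and 21.0 FPKM in irradiated replicates 1, 2 and 3. The control libraries lay within 2 FPKM of each other and every irradiated library was far below them. The mean in irradiated libraries was 50.3% of that in control, a log2 change of -0.97 ± 0.09 (SE) with a limma adjusted p of 3.2e-05.

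Its neighbour Trim30d, a close paralogue (chromosome 7, 104470014 to 104507849), showed the same size of change at a lower level. Its values were 13.4, 10.9 and 12.6 FPKM in control and 5.45, 6.33 and 5.48 FPKM in irradiated libraries, a log2 change of -0.98 ± 0.11 (limma adjusted p = 0.000141). Trim30c, another copy, had a mean of 0.879 FPKM and was left out by the filter; it was listed at 1.23, 2.04 and 1.06 FPKM in control and at 0.166, 0.469 and 0.302 FPKM in irradiated libraries. When all listed genes were tested, Trim30c was at -0.88 ± 0.17 (limma adjusted p = 0.0211). Trim30b, the remaining copy, was at 1.25, 1.52 and 1.94 FPKM in control and at 1.70, 1.46 and 1.35 FPKM in irradiated libraries, which overlap, with a log2 change of -0.03 ± 0.16 and a 95% interval of -0.39 to 0.32.

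Trim12c, Trim12a and Trim5 are the mouse relatives of human TRIM5, a restriction factor that binds retroviral capsids, and they lie within the same cluster on chromosome 7. Trim12c was at 29.0, 26.5 and 32.4 FPKM in control and at 17.7, 19.5 and 17.6 FPKM in irradiated libraries, so that the groups stayed apart, and it changed by -0.65 ± 0.09 (limma adjusted p = 0.000439). Trim12a, at a similar level, was at 25.7, 30.01 and 34.1 FPKM in control and at 24.8, 29.4 and 21.7 FPKM in irradiated libraries. Those groups overlapped and Trim12a did not pass, with a log2 change of -0.23 ± 0.12 and a 95% interval of -0.50 to 0.03. Trim5, the lowest of these genes, was at 5.44, 5.03 and 6.24 FPKM in control and at 4.05, 3.10 and 4.02 FPKM in irradiated libraries, a change of -0.48 ± 0.14 (limma adjusted p = 0.0366). Dropping single libraries cost Trim5 its call in 5 of 6 cases (largest limma adjusted p 0.112).

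Pairs of copies were also set against each other within each library, a comparison of 2 pairs chosen after their values were seen. The ratio of Trim12c to Trim12a was 1.13, 0.884 and 0.949 in control and 0.715, 0.664 and 0.811 in irradiated libraries. The ratio of Trim30a to Trim30b was 34.9, 28.9 and 23.3 in control and 15.3, 13.7 and 15.5 in irradiated libraries. Both ratios were lower in all 3 irradiated libraries than in any control library, and the two-sided exact permutation p of each was 0.1 (0.1 after adjustment), the smallest that 3 against 3 allows.

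Trim34a, the mouse counterpart of another human capsid-binding factor, was at 11.2, 12.7 and 11.3 FPKM in control and at 6.91, 6.88 and 7.36 FPKM in irradiated libraries. The groups were well apart, and the log2 change was -0.66 ± 0.10 (limma adjusted p = 0.00107). Its copy Trim34b was listed at 0.0556 to 0.480 FPKM over the 6 libraries and was not tested. Trim6, at the edge of the same cluster, was listed at 0.121, 0.191 and 0.405 FPKM in control and at 0.525, 0.363 and 0.840 FPKM in irradiated libraries and was not tested either.

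These 10 genes form a cluster on chromosome 7 (104218793 to 104507849 on GRCm38, GENCODE M21), a stretch of 289 kb from Trim6 to Trim30d. Of its 7 tested genes 5 were called lower, beside 10.3% of all tested genes. On the same build Trim25 lies on chromosome 11 (88999376 to 89020293), Trim14 on chromosome 4 (46493781 to 46536141), Trim28 on chromosome 7 (12999114 to 13031035), Trim8 on chromosome 19 (46501702 to 46516848) and Trim3 on chromosome 7 (105604463 to 105633571), outside the cluster. Copies in it resemble each other, so reads can be shared and the values of single copies are uncertain. Of all stretches of 50 bases in the GENCODE M21 transcripts of a gene, the share also found in another gene's transcripts was 39.8% for Trim34a (with Trim34b), 36.3% for Trim5, 33.0% for Trim12c and 10.4% for Trim12a. For Trim30a it was 6.0% and for Trim30d 7.5%.

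Antiviral members outside the cluster fell as well. Trim25, which attaches the ubiquitin chains that activate the RNA sensor RIG-I, was at 25.1, 28.8 and 29.7 FPKM in control and at 16.5, 17.7 and 18.3 FPKM in irradiated libraries. Every irradiated library was below every control library, with a log2 change of -0.64 ± 0.09 (limma adjusted p = 0.000408). Trim14, a member without a RING finger that acts as an adaptor of antiviral signalling at mitochondria, was at 20.6, 23.6 and 21.5 FPKM in control and at 11.9, 15.2 and 10.7 FPKM in irradiated libraries, a change of -0.76 ± 0.12 (limma adjusted p = 0.00111).

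Trim26 and Trim21 changed less. Trim26, which targets the interferon factor IRF3 for degradation, was at 16.5, 13.4 and 17.0 FPKM in control and at 10.9, 12.3 and 10.6 FPKM in irradiated libraries, so the lowest control value stood close above the highest irradiated one. Its change was -0.43 ± 0.11 (limma adjusted p = 0.0198), and dropping single libraries cost it the call in 4 of 6 cases (largest adjusted p 0.0845). Trim21, the cytosolic antibody receptor that marks antibody-coated viruses for destruction, was at 16.5, 14.3 and 14.9 FPKM in control and at 9.87, 13.4 and 11.5 FPKM in irradiated libraries. Its change of -0.37 ± 0.11 sat at the threshold (limma adjusted p = 0.0478), and 10 of 13 alternative settings lost the call, at adjusted p up to 0.171. Trim56, a ligase of the antiviral DNA-sensing pathway, was at 17.2, 17.1 and 19.5 FPKM in control and at 14.5, 13.4 and 16.2 FPKM in irradiated libraries. Its groups did not overlap, but at -0.27 ± 0.10 it did not pass (limma adjusted p = 0.082). Trim38 was listed at 0 in 5 libraries and at 0.134 FPKM in control replicate 3.

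**Figure D3:**
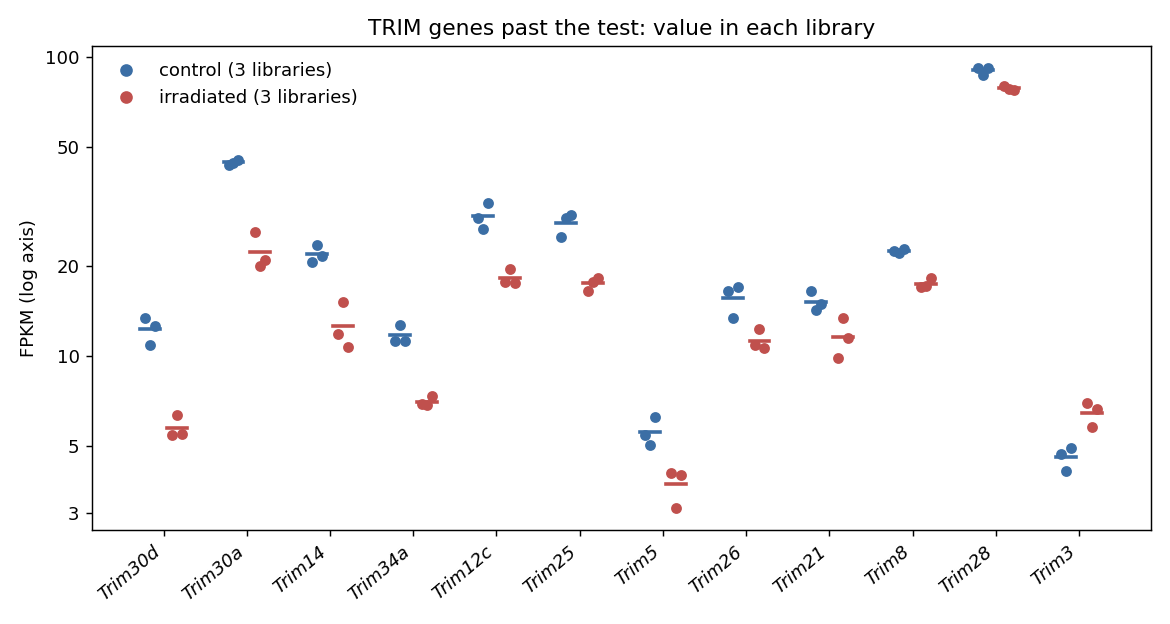
FPKM on a log axis in each of the 3 control and 3 irradiated libraries for the 12 TRIM genes past the test, with bars at the group means. Trim30a drops from 43.7 to 45.3 FPKM in control to 19.97 to 25.9 FPKM in irradiated libraries, whereas Trim28 moves only from 87.2 to 91.8 to between 77.5 and 79.7 FPKM.

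Promoters were examined for the core of the interferon-stimulated response element, a site bound by interferon regulatory factors. The motif searched was GAAANNGAAA on both strands, where N is any base, in the window from 250 bases before to 50 bases after each RefSeq start on GRCm38.p6; overlapping matches count as 1 gene. It was chosen with the changes above known. Of the 53 members 40 had at least 1 window in that table. The motif was in 3.44% of all 32851 windows, in 4.08% of tested genes with a window, in 9.76% of genes called lower and in 45.7% of the interferon response genes outside the family. Among TRIM genes with a window it was found in 7 of 9 called lower and in 1 of 17 other tested members, Trim12a. Of those 7, Trim30a, Trim30d, Trim12c, Trim5 and Trim34a are related copies in the chromosome 7 cluster, so these matches are not independent of each other. The untested Trim2 held the motif too. Trim14, Trim8 and Trim3 had no window. A match is a string of letters, not a measured binding site.

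The sequences around these matches are shown so that the starts of the called genes and of Trim12a can be compared. Each runs 5′ to 3′ along the gene's own strand, with the motif or its reverse complement in capitals, and holds at most 30 bases after the annotated start.
Trim30a, chr7:104465205-104465254, minus strand: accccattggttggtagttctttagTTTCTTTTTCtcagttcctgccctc
Trim30d, chr7:104507866-104507915, minus strand: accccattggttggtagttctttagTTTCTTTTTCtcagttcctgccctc
Trim12c, chr7:104353354-104353403, minus strand: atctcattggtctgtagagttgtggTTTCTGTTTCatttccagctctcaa
Trim5, chr7:104288131-104288180, minus strand: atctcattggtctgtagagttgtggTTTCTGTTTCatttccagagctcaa
Trim12a, chr7:104315466-104315510, minus strand: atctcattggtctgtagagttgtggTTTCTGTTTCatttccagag
Trim34a, chr7:104244442-104244486, plus strand: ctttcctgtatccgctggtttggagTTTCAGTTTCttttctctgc
Trim21, chr7:102565453-102565494, minus strand: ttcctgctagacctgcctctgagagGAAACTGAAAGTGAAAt
Trim26, chr17:36836961-36837016, plus strand: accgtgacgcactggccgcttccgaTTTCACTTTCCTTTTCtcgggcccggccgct

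The Trim30a and Trim30d stretches were identical over 50 of 50 bases. The Trim5 and Trim12c stretches shared 48 of 50 bases, and the Trim5 and Trim12a stretches 45 of 45. Between these subgroups they differed more: Trim5 and Trim30d shared 28 of 50 bases, Trim12c and Trim30a 27 of 50, and Trim34a and Trim30d 20 of 45. Trim21 and Trim26 were not compared base by base. The motif began 36 bases before the annotated start in Trim30a, 41 before it in Trim30d, 29 before it in Trim12c and 49 before it in Trim5. A further annotated start of Trim30a also held it, 2 bases after that start. It began after the start in Trim12a and Trim34a (10 bases each) and in Trim21 (13 and 19 bases, overlapping matches). Trim26 held overlapping matches at 160 and 154 bases before the start. Trim12a, which did not pass, thus carries the same letters as Trim5, which did. The intervals of their log2 changes overlap, at -0.5 to 0.03 for Trim12a and -0.78 to -0.18 for Trim5. Trim5 lost its call in 7 of 12 alternatives. Whether Trim12a and Trim5 differ in their change was not tested. Trim25 and Trim28 were the called lower members with a window but no match. Trim30c, left out of these counts by the filter but lower when all listed genes were tested, also had a window without a match.

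The chromatin-binding members were led by Trim28, the most abundant TRIM gene in all 6 libraries. Trim28 encodes the corepressor that KRAB zinc finger proteins recruit to silence transposable elements, through the histone methyltransferase SETDB1. It was at 91.5, 87.2 and 91.8 FPKM in control and at 79.7, 78.1 and 77.5 FPKM in irradiated libraries, tight groups that did not overlap. The change was small, at -0.20 ± 0.05 with a 95% interval of -0.31 to -0.08 (limma adjusted p = 0.0246), and the mean in irradiated libraries was 87.0% of that in control. Median-of-ratios scaling, quantile normalization, a fit without a trend and dropping single libraries in 3 of 6 cases cost Trim28 this call, with adjusted p between 0.0503 and 0.113.

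Trim33, a ligase of the SMAD pathway that is needed in blood formation, was at 8.04, 7.97 and 9.88 FPKM in control and at 9.49, 9.16 and 9.58 FPKM in irradiated libraries. The groups overlapped, with a log2 change of 0.12 ± 0.11 and a 95% interval of -0.12 to 0.36. Trim24, a reader of histone marks and coregulator of nuclear receptors, was at 3.49, 4.45 and 4.55 FPKM in control and at 3.75, 3.37 and 5.09 FPKM in irradiated libraries, again overlapping, with an interval of -0.38 to 0.31. Trim66, the remaining member with these domains, was listed at 0 to 0.0444 FPKM. Of 16 tested partners of these proteins in chromatin and SMAD signalling 0 rose, 4 fell and 12 did not pass. Over all tested genes 10.3% were called lower and 6.29% higher. The median log2 change of the partners was -0.11, and 14 had intervals within 0.5. Those with the lowest p were Daxx, Chd3 and Smad3. Daxx, a histone chaperone, changed by -0.52 ± 0.10 and Chd3, a nucleosome remodeller, by -0.31 ± 0.08. Smad3, which transmits TGF-beta signals, changed by -0.36 ± 0.10.

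Trim8, which modulates NF-kB and cytokine signalling and has a RING finger but no SPRY domain, was the other called member outside the antiviral list that fell. Values of 22.4, 22.0 and 22.7 FPKM in control and of 17.0, 17.2 and 18.2 FPKM in irradiated libraries were recorded, which is tight within each group and apart between them. The log2 change was -0.34 ± 0.08 (limma adjusted p = 0.00961), and the call held in all 13 alternative settings. Trim44, which lacks a RING finger, was at 17.0, 14.3 and 16.2 FPKM in control and at 11.9, 15.9 and 11.5 FPKM after irradiation and did not pass (-0.27 ± 0.12, limma adjusted p = 0.175). Without irradiated replicate 2, the highest of its group, Trim44 was at -0.40 with a limma adjusted p of 0.0332. In the other 12 of 13 alternatives Trim44 did not pass, at limma adjusted p up to 0.403.

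The 1 member that rose was Trim3, an NHL-repeat ligase best known from neurons. It was at 4.70, 4.13 and 4.93 FPKM in control and at 6.96, 5.80 and 6.67 FPKM in irradiated libraries, without overlap, a log2 change of 0.42 ± 0.12 (limma adjusted p = 0.0401). Dropping single libraries cost Trim3 its call in 5 of 6 cases (largest limma adjusted p 0.151). Trim32, the NHL-repeat gene mutated in a limb-girdle muscular dystrophy, was at 2.09 to 3.04 FPKM in control and 1.67 to 2.01 FPKM after irradiation, apart but not past the test (-0.26 ± 0.16). Trim2, which neurons express, was listed at 0.0297 to 0.110 FPKM.

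Among members with 95% intervals that bound their change were several abundant genes. An interval wholly between -0.5 and 0.5 was found for 13 tested members, or 37.1%, beside 65.8% of all tested genes; Trim28 was one of them, and the other 12 did not pass the test. Trim27, which restrains CD4 T cell activation through a lipid kinase, had the narrowest interval of those, -0.19 to 0.20. It was at 20.6, 19.5 and 20.04 FPKM in control and at 21.7, 17.9 and 21.0 FPKM in irradiated libraries, on both sides of the control range. Trim41, a SPRY-domain ligase, was at 19.0, 19.4 and 24.1 FPKM in control and at 22.3, 24.8 and 21.8 FPKM in irradiated libraries, with an interval of -0.08 to 0.36. Trim35, also a SPRY-domain ligase, was at 20.3, 19.8 and 21.9 FPKM in control and at 20.8, 17.99 and 15.2 FPKM in irradiated libraries, with an interval of -0.44 to 0.04. Also within the band were Trim16, Trim23, Trim24, Trim30b, Trim33, Trim37, Trim46, Trim56 and Trim68. The interval of Trim56, at -0.49 to -0.06, lies wholly below 0, so Trim56 is bounded but not shown to be unchanged. The bound holds on the log2(FPKM + 1) scale, which compresses low genes such as Trim30b and Trim46. With a pseudocount of 0.1 the count of bounded members was 9, and the SE was 0.26 in place of 0.16 for Trim30b and 0.29 in place of 0.17 for Trim46. Without control replicate 1 the count was 8.

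The other 11 members that did not pass had intervals that reach past 0.5 in size. Trim36, a microtubule-binding ligase, was at 1.67, 1.72 and 1.57 FPKM in control and at 1.06, 0.705 and 1.02 FPKM after irradiation. The groups were apart, but Trim36 did not pass (-0.46 ± 0.16, limma adjusted p = 0.0679). A fit without a trend gave a limma adjusted p of 0.019, while the other 11 of 12 alternatives did not call Trim36. Its irradiated mean was 0.928 FPKM, so it passed the filter on low values only through the control libraries. Its test is thus no independent support for a fall. Trim59, which sits in the endoplasmic reticulum membrane, was at 15.3, 18.6 and 20.8 FPKM in control and at 12.4, 16.3 and 14.9 FPKM in irradiated libraries, with overlap and a log2 change of -0.31 ± 0.13 (limma adjusted p = 0.128). Trim11 and Trim39 leaned the other way, at 0.33 ± 0.12 and 0.35 ± 0.14 (limma adjusted p = 0.0902 and 0.12). Without control replicate 3, the highest control library of both, Trim11 was at 0.44 and Trim39 at 0.51, with limma adjusted p of 0.0346 and 0.018. In the other 12 of 13 alternatives neither gene passed, at limma adjusted p up to 0.292 for Trim11 and 0.373 for Trim39. Trim65, which ubiquitinates the RNA sensor MDA5 and whose gene overlaps Trim47 on the same strand, so that reads may be split between them, was at -0.30 ± 0.14, Trim62 at -0.22 ± 0.16 and Trim45 at -0.13 ± 0.18.

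Trim10 and Trim58 are ligases of maturing red cells. Trim10 was at 3.12, 1.96 and 1.59 FPKM in control and at 2.04, 0.894 and 1.70 FPKM in irradiated libraries, which overlap, and it did not pass (-0.34 ± 0.22, limma adjusted p = 0.343). Trim58 was listed at 0.896, 1.07 and 0.972 FPKM in control and at 0.971, 0.853 and 0.290 FPKM in irradiated libraries and was not tested. In the same libraries 6 of 10 erythroid markers fell and 0 rose, beside 10.3% and 6.29% of all tested genes. Their summed level was 1074 to 1314 FPKM in control and 720.8 to 750.4 FPKM in irradiated libraries. The part of these markers in the Trim10 values was not tested.

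The 18 members below the mean of 1 FPKM include those of muscle, neurons, testis and epithelia. Trim54 and Trim55, the muscle RING fingers, and Trim29, Trim38 and Trim43c were listed at 0 in all 3 irradiated libraries and at no more than 0.134 FPKM in control. Trim9, Trim66, Trim69 and Trim72 were also at 0 in at least 1 library. Trim13, an endoplasmic reticulum ligase, was at 0.412, 0.645 and 1.05 FPKM in control and at 0.923, 0.575 and 0.779 FPKM in irradiated libraries. Trim47, a SPRY-domain ligase, was at 2.05, 0.881 and 0.946 FPKM in control and at 0.998, 0.312 and 0.354 FPKM in irradiated libraries, with the highest values in the first replicate of each group.

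TRIM proteins with other symbols were read beside the family. Pml, the organiser of nuclear bodies and itself interferon-inducible, fell from 13.5 ± 0.735 FPKM (SD, n = 3) in control to 8.19 ± 1.597 FPKM in irradiated libraries (-0.67 ± 0.13 SE, limma adjusted p = 0.00493). Mid1, a microtubule-associated ligase, was at 0.494 ± 0.116 FPKM in control and at 1.67 ± 0.333 FPKM after irradiation. It passed the filter on low values only through the irradiated libraries, so its test (0.83 ± 0.17, limma adjusted p = 0.00614) is no independent support for a rise. Mefv, which encodes the inflammasome sensor pyrin, was at 17.7 ± 0.0986 and 20.3 ± 1.83 FPKM, which did not pass (limma adjusted p = 0.168). Mid2 and Cmya5 had means below 1 FPKM.

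Interferon response genes and signalling genes were read beside the antiviral members. Over all tested genes 10.3% were called lower and 6.29% higher. Of 44 tested type I interferon response genes outside the family 41 fell and 0 rose, with a median log2 change of -1.16, against -0.56 for the antiviral TRIM genes; the list was drawn up with such a fall in these libraries known. Ifi27l2a changed by -2.19 ± 0.08, Slfn5 by -1.66 ± 0.08 and Lgals3bp by -1.28 ± 0.06. Of 20 tested genes of RIG-I and interferon signalling 1 rose, 10 fell and 9 did not pass, with a median of -0.24, including Irf7 (-1.88 ± 0.08) and Irf9 (-0.74 ± 0.07), which amplify or transmit the interferon signal.

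Other genes of the ubiquitin system are read against the 16.6% of all tested genes that were called. Of 21 tested E1 and E2 enzymes, which activate ubiquitin and hand it to ligases, 1 rose and 2 fell, with a median of -0.03. Ube2d1, an E2 that works with many RING ligases, rose by 0.43 ± 0.10, while Ube2r2 and Ube2g1 changed by -0.39 ± 0.09 and -0.37 ± 0.09. Among 56 tested RING finger genes of the Rnf series 2 rose and 6 fell, with a median of -0.05. Rnf213, a giant ligase that interferon induces, changed by -0.81 ± 0.09, Rnf114 by -0.53 ± 0.09 and Rnf187 by -0.44 ± 0.08.

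**Figure D4:**
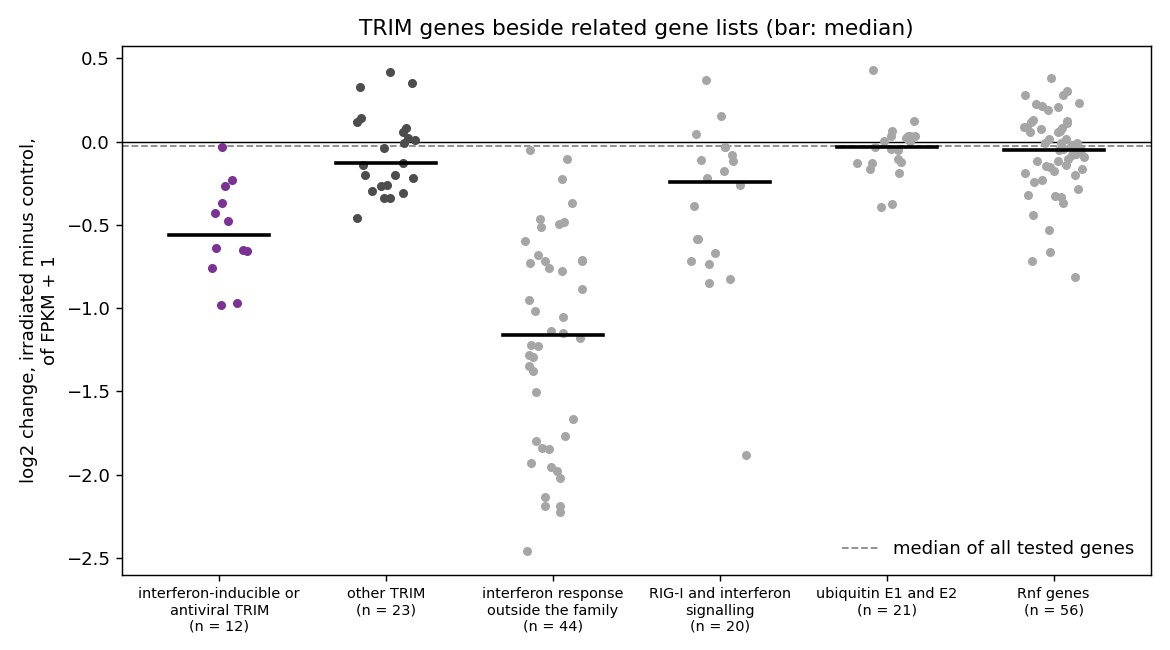
Log2 change of FPKM + 1, irradiated minus control, of each tested gene in 6 lists, with the list median as a bar and the median of all tested genes as a dashed line. The 12 antiviral TRIM genes have their median at -0.56, the 23 other TRIM genes at -0.13 and the 56 Rnf genes at -0.05.

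Markers of several cell types moved in the same libraries as the antiviral TRIM genes. Over all tested genes 10.3% were called lower and 6.29% higher. All 12 tested monocyte and macrophage markers fell, with a summed level of 749 to 771 FPKM in control and 256 to 278 FPKM in irradiated libraries. For dendritic cells 8 of 9 tested markers fell (summed 232 to 239 and 106 to 123 FPKM, with Zbtb46 and Xcr1 under 1 FPKM throughout), for B cells 9 of 9 (114 to 121 and 42.9 to 50.3 FPKM, with Ebf1 under 1 FPKM throughout), and for T cells 12 of 12 (479 to 498 and 284 to 298 FPKM). Of 15 neutrophil markers 12 rose and 0 fell, summed at 69618 to 74824 FPKM in control and 101706 to 104706 FPKM in irradiated libraries. None of these markers was at 0 in every library, and their part in the TRIM values was not tested.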

How the data were processed

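The authors deposited 1 table per library with 1 value per gene, read as FPKM because value times exonic length summed to between 1465036 and 1476188 in each library while column totals differed; per the file headers only the gene and the sample are named. The submitters' processing notes name the tools HISAT2, StringTie and fastp and the builds GRCm38 and mm10; their versions and the strand setting were not given in the sources used here. Genes averaging 1 FPKM or more were tested on log2(FPKM + 1), pseudocount 1, with limma 3.58.1 in R 4.3.3 (lmFit, eBayes with a trend), two-sided, adjusted over 10666 genes. Tables and plots were made with Python 3.11.15, numpy 2.4.6, pandas 2.3.3 and matplotlib 3.10.9. Relative depth is the scale at which values below 0.1 FPKM stood in whole-number ratios (at most 6, tolerance 0.001), met by 128 to 209 of 225 to 341 genes. The fit was first tested on simulated data, with 200 of 10666 genes changed in each of 5 draws. It called 43.4% of changes of 0.5 in log2 and 87% of changes of 1, and 3.39% of calls were false. The draws changed 200 genes, whereas 1771 were called in the real libraries, so these shares may differ in the real data. A gene that did not pass can therefore have changed by 0.5 where its interval reaches past 0.5 in size. Of the 23 members that did not pass, 11 had such an interval. The other 12 had intervals within 0.5 on the log2(FPKM + 1) scale. Every member could be named. By a rule set beforehand, values per library are given for called, most abundant, most tightly bounded and 14 preset members. They are also given for some members outside that rule, among them Trim6, Trim30b, Trim30c, Trim36, Trim44 and Trim47. Up to 3 genes of lowest p are named per other list. Members and lists were chosen with earlier results of these data known, and the motif and the paralogue ratios after these values were seen. Alternatives varied the pseudocount, filter, scaling, trend, replicate block and the libraries included.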

Additional observations from a re-analysis of the deposited data

How the results depend on the processing

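Across 13 alternatives Trim30a, Trim30d, Trim14, Trim34a, Trim12c, Trim25 and Trim8 kept their direction and their call, and the other 5 of 12 called members (Trim5, Trim26, Trim21, Trim28 and Trim3) lost it in at least 1; no called member changed sign. With no filter 0 members were higher, with the replicate block 0, and in fits that left out a library 0 to 2. Those fits gave 7 to 10 members lower, 6 to 8 antiviral members lower, 8 to 14 members with an interval within 0.5, and 1123 to 1652 genes called in all, against 1771 with all libraries, the lowest without control replicate 2; fewer samples enter them. Without a filter 29 of 53 members were within 0.5. That fit takes in the 18 members below 1 FPKM, whose changes the log2(FPKM + 1) scale compresses. Trim9, for example, was at 0.0 ± 0.04 and Trim54 at -0.02 ± 0.04, which does not show them to be stable. How far such genes raised the count was not tested. The replicate block left 9 members lower and ended the calls of Trim21, Trim28 and Trim3 (limma adjusted p = 0.083, 0.0521 and 0.0528). The main fit has no such block because the labels do not say what the replicate numbers share. Same-numbered libraries correlated in their deviations at 0.011, -0.042 and -0.023, and not every library correlated best with its own number. Signs near 0 turned with quantile normalization for Trim24 (0.03), Trim30b (0.07) and Trim68 (0.07), and with median-of-ratios scaling for Trim68 (0.02). The median change of all tested genes was 0.04 higher with quantile normalization and 0.03 higher with median-of-ratios scaling than in the main fit. The part of that shift in these signs was not tested. Leaving out a library, changes ranged from -0.02 to 0.18 for Trim16, -0.07 to 0.19 for Trim23, -0.17 to 0.07 for Trim24, -0.05 to 0.09 for Trim27, -0.12 to 0.07 for Trim30b, -0.27 to 0.01 for Trim45, -0.10 to 0.07 for Trim46 and -0.13 to 0.13 for Trim68. Without read counts the counting error of members below 1 FPKM is unknown.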
